A study of Mus musculus with 2 samples.

Results

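The Hox genes encode homeodomain transcription factors that give cells their position along the body axis, and in mammals they lie in 4 clusters, HoxA to HoxD. Here 38 of the 39 Hox genes of the GENCODE M21 annotation were described, out of 21802 protein-coding genes measured; the remaining gene was not analysed here. The members were taken by name and not by any measured value. The 4 cluster intervals, each from the first to the last base of its members, were chr6:52162417-52260880 for HoxA, chr11:96194316-96368256 for HoxB, chr15:102921103-103036852 for HoxC and chr2:74668310-74765142 for HoxD, on the mm10 assembly. DNase-seq, which finds open chromatin by where the enzyme DNase I cuts it, was run on 2 libraries of hippocampus from B6CASTF1/J female mice aged 14 days, a first-generation hybrid of C57BL/6J and CAST/EiJ. Each library's label names 3 females, and the libraries are numbered as biological replicates 1 and 2 of 1 group, with their own biosample identifiers and a common donor identifier. Which animals went into each library is not stated, so part of the spread between them may be technical. No comparison between conditions was possible, and no test was run.

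Within a cluster the order of the genes along the chromosome matches the order of their expression domains from head to tail. Groups of genes that descend from 1 ancestral gene share a number between clusters, and low numbers act toward the head and high numbers toward the tail. Hox genes are expressed in the hindbrain and spinal cord, while the forebrain, including the hippocampus, forms in front of their domains. Where they are silent, Polycomb proteins cover the clusters, and the DNA-binding protein CTCF is known to sit at sites between the genes.

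The 2 libraries had 23 open sites in common within the clusters, and 6 of these lay at promoters of Hox genes. A peak is a region that the authors called as enriched for cuts, and it counted as shared where it overlapped a peak of the other library by at least 1 bp. Peak signal is given in the authors' units, whose scaling is not stated, so the depth in reads is unknown and values are read only within a library. Percentiles rank a peak among all peaks of its own library, and shared sites were ranked by the lower of their 2 percentiles. Sites are named by the pair of Hox genes whose 3′ ends flank them. Of the 23 shared sites, 9 are printed below from the GRCm38.p6 sequence, the assembly that mm10 names. They are the strongest shared sites outside untranslated regions and every other such site with a match to a CTCF core. That core was searched on both strands as CC, 3 bases of any kind, AG, 2 bases of any kind and GGC. Capitals mark matches to it or to the shorter pattern AGNNGGCGC, which was chosen after the sequences were seen and can overlap the core.
Hoxc9/Hoxc8 site, chr15:102987501-102987700, plus strand: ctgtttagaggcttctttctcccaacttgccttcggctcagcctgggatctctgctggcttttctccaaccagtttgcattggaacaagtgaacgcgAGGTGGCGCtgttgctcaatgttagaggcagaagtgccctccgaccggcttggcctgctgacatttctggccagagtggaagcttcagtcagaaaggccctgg
Hoxd9/Hoxd8 site, chr2:74702301-74702500, plus strand: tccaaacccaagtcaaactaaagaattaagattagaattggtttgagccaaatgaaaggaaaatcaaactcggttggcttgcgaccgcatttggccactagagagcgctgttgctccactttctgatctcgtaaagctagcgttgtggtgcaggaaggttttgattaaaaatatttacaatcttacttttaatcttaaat
Hoxb9/Hoxb8 site, chr11:96278861-96279060, plus strand: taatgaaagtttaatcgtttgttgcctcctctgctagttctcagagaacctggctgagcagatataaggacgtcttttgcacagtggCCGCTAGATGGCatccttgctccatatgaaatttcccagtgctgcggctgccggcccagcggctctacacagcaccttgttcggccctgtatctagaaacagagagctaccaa
Hoxd8/Hoxd4 site, chr2:74715841-74716040, plus strand: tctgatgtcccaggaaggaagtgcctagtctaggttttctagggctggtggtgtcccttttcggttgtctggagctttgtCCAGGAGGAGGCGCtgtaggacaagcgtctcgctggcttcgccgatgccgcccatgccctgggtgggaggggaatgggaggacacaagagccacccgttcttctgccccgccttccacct
Hoxa11/Hoxa13 site, chr6:52257041-52257220, plus strand: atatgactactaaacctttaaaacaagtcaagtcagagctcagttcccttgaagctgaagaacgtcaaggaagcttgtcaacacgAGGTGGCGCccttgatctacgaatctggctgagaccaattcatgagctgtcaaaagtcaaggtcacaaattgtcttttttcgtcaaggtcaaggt
Hoxa6/Hoxa7 site, chr6:52211661-52211860, plus strand: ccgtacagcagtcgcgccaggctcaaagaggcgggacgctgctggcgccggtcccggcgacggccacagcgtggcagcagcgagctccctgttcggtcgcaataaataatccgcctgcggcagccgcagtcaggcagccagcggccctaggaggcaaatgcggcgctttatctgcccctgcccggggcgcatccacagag
Hoxb13/Hoxb9 site, chr11:96261643-96261820, plus strand: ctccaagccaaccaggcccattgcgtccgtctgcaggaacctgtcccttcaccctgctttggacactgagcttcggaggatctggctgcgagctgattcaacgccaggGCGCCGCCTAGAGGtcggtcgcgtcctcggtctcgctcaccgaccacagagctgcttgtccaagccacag
Hoxb6/Hoxb5 site, chr11:96303141-96303340, plus strand: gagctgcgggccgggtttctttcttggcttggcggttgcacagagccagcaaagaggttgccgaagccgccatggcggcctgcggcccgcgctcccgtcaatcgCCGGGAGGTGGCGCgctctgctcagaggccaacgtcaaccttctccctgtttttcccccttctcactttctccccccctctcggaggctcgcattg
Hoxd13/Hoxd12 site, chr2:74673061-74673240, plus strand: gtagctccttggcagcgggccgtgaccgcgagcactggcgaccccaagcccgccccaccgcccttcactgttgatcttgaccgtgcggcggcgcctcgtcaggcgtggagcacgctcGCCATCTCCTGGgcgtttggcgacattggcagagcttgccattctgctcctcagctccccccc

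By that rank the strongest shared site lay between Hoxc9, a posterior gene, and its neighbour Hoxc8. Its signal was 5.92 in replicate 1 and 2.17 in replicate 2, the 92.7th and 92.9th percentiles. It lay in an intron, 2907 bp from the 5′ end of Hoxc8. The site between Hoxd9 and Hoxd8 had 4.36 and 1.97, the 89.6th and 91.8th percentiles. The site between Hoxb9 and Hoxb8 had 3.60 and 2.20, the 87.4th and 93.1st percentiles. In HoxB, HoxC and HoxD, then, the shared site with the highest signal in both libraries lay between the genes numbered 9 and 8. HoxA has no gene numbered 8, and its first-ranked shared site lay between the 3′ ends of Hoxa7 and Hoxa9, at an upstream start of Hoxa7. It had 5.49 and 1.34, the 91.9th and 85.8th percentiles, and its sequence, which overlaps an untranslated region, is not printed.

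The other 4 of the first 8 sites in rank followed. The Hoxd8/Hoxd4 site, at the start of the antisense RNA gene Hoxd3os1, had 3.21 and 1.28. The Hoxa11/Hoxa13 site, at the start of the gene model 9530018H14Rik, had 1.96 and 1.66, and in replicate 2 it was the strongest of HoxA. The Hoxa6/Hoxa7 site had 2.89 and 0.894. The site between Hoxa10 and Hoxa11, at an upstream start of Hoxa10, had 1.84 and 0.883. All 8 of these sites were at or above the 75th percentile of their library in both. The last site in rank lay in the long gap between Hoxb13 and Hoxb9, with 0.509 and 0.485, the 28.4th and 50.6th percentiles. In replicate 1 no shared site was weaker, while in replicate 2 the weakest, in an exon of Hoxb8, had 0.363.

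Matches to the CTCF core were found in 7 of the 23 shared sites, or 30.4% of the central 200 bp of the peaks. The same window held a match in 16.1% of all shared peaks of replicate 1 and in 15.9% of those of replicate 2. Among the peaks found in replicate 1 only, 6 of 79 in the clusters held one (7.59%), against 7.65% of all such peaks. The 7 sites were Hoxa7/Hoxa9, Hoxa10/Hoxa11, Hoxb13/Hoxb9, Hoxb9/Hoxb8, Hoxb6/Hoxb5, Hoxd13/Hoxd12 and Hoxd8/Hoxd4, and none was in HoxC. A footprint is a short stretch inside open chromatin that is protected from cutting. One lay on the match in 7 of the 7 sites in replicate 1 and in 6 in replicate 2, where the Hoxb6/Hoxb5 site had none on it. Footprints were common in the shared sites, with or without a match: 23 of the 23 held one in replicate 1 and 21 in replicate 2. How often a footprint lies on a match over all peaks was not counted. The shorter pattern was present in 8 shared sites, 3 of them in HoxC, and 11 sites held either pattern. In the peaks' central windows it was found in 34.8% of the shared cluster peaks, against 8.62% and 8.35% of all shared peaks in replicates 1 and 2. Because it was chosen on these sites, that share is a description only. The Hoxd9/Hoxd8 and Hoxa6/Hoxa7 sites held neither pattern. A match is a run of letters and not a measured binding site.

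Patterns bound by other factors tied to Hox control were counted in the same way. The direct repeats bound by retinoic acid receptors, with 5 or 2 bases between the repeated units, were present in 0 of the 102 cluster peaks of replicate 1 and 0 of the 31 of replicate 2. Each is rare everywhere, in at most 0.0864% of all peaks of a library. The joint site of HOX and PBX proteins, written TGATTNAT, was found in 3 of the 79 peaks of replicate 1 only, against 1.48% of all such peaks. It was in 0 of the 23 shared sites, against 1.66% and 1.93% of all shared peaks in replicates 1 and 2. Counts this small cannot set the clusters apart from all peaks.

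**Figure D1:**
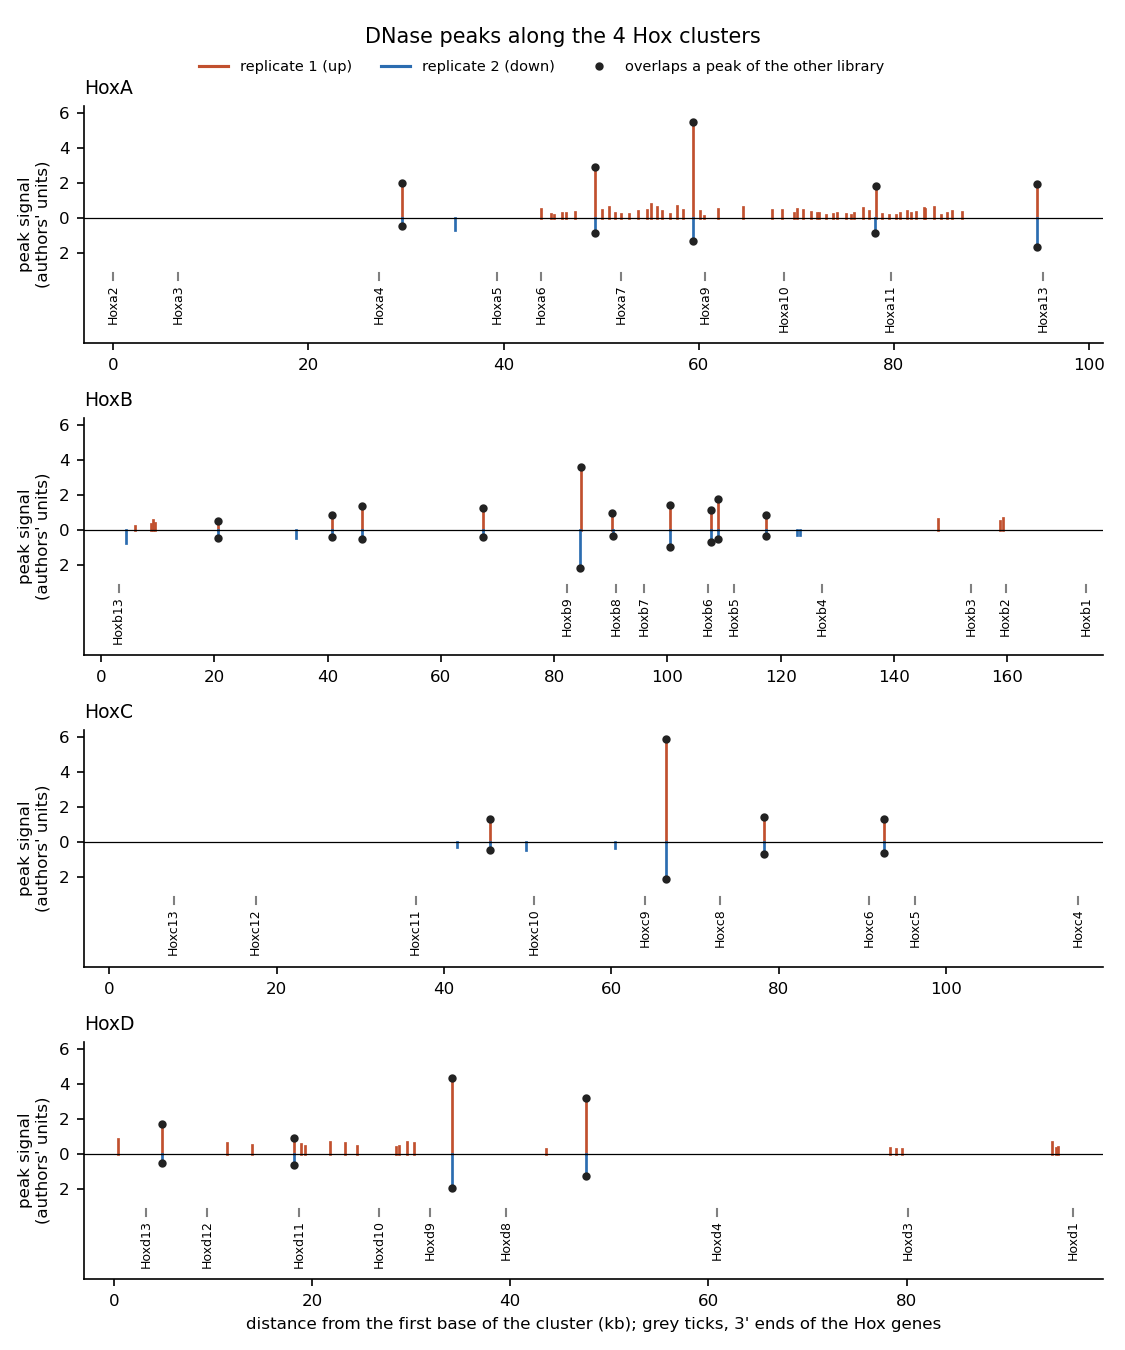
Peak signal, in the authors' units, against the distance in kb from the first base of each Hox cluster, with replicate 1 drawn upward, replicate 2 downward and grey ticks at the 3′ ends of the genes. Black dots mark the 23 sites found in both libraries, among them the strongest of every cluster; HoxA of replicate 1 holds 58 peaks, most of them weak, against 6 in replicate 2.

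At the promoters of the Hox genes, open chromatin was less frequent than at those of other genes in both libraries. A promoter counted as open where any coding transcript of the gene had a peak no more than 500 bp from its start. In replicate 1, 16 of the 38 Hox genes were open, against 66.0% of all genes. In replicate 2, 7 were open, against 63.5%. In both libraries 6 were open (15.8%), against 61.9%. A further 10 were open in replicate 1 only and 1 in replicate 2 only, classes that held 4.08% and 1.59% of all genes. The remaining 21 Hox genes had no promoter peak in either library.

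The sequence at the 5′ ends of most of these genes is rich in CpG. The 5′ end is that of the whole gene model, which for some genes lies far from the coding starts where openness was counted. At Hoxd4 the 5′ end is 74711929, and the first coding start is 74721978. Most mammalian CpG-rich promoters are open in most tissues. Of the 38 Hox genes, 24 had an observed-over-expected CpG ratio of at least 0.6 within 500 bp of the 5′ end, and the median over the 38 was 0.665, against 0.552 over all genes. Among all 10010 genes that are CpG-rich by this measure, 93.5% were open in both libraries, 3.41% in replicate 1 only and 0.240% in replicate 2 only. Among the 24 Hox genes, 3 were open in both, 8 in replicate 1 only and 13 in neither.

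Other measures gave low counts as well. The authors' files list runs of bases whose cut rate passed a false discovery rate of 0.05. Such bases were present at the promoters of 17 Hox genes in replicate 1 and 7 in replicate 2, against 66.7% and 64.6% of all genes. The median Hox promoter had 0% of its bases passing in both libraries, where the median over all genes was 37.2% and 30.3%. At least 1 promoter footprint was found for 13 Hox genes in replicate 1 and 6 in replicate 2, and the same 6 had one in both, against 64.6%, 61.6% and 60.2% of all genes.

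The 6 genes open in both libraries were Hoxa4, Hoxa7, Hoxa10, Hoxb5, Hoxc5 and Hoxc10. Hoxa4 and Hoxb5 belong to the central groups, which pattern the neck and upper trunk. Signal at the Hoxa4 promoter was 1.99 in replicate 1, and in replicate 2 it was 0.473. Hoxb5 had 1.78 and 0.560. Hoxc5 had 1.33 and 0.623. Each of these stood low among the open promoters of its library, between the 8.75th and the 21.9th percentile. Hoxc10, which acts in the lumbar spinal cord and hindlimb, had 1.29 and 0.473, the 14.0th and 8.75th percentiles.

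Hoxa7 had the highest signal in both libraries, and Hoxa10 the next highest in replicate 2. In both genes the shared peak lay at an upstream start and not at the start of the principal transcript. Hoxa7, a trunk patterning gene, had 5.49 and 1.34 at the start at 52221854, the 49.0th and 29.8th percentiles of open promoters. At its principal start, 52217505, the value was 0.805 in replicate 1, and replicate 2 had no peak. Hoxa10, which patterns the lumbar region and the uterus, had 1.84 and 0.883 at the start at 52240854, near the 20th percentile in both. At its principal start, 52234939, it had 0.289 in replicate 1 and no peak in replicate 2. With principal starts alone, 4 Hox genes were open in both libraries. Both upstream peaks are CTCF core sites named above. The shared promoter peak of Hoxb5, at a principal start, is also one, the Hoxb6/Hoxb5 site.

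Hoxb4, a gene of the hindbrain and of blood stem cells, was the single gene open in replicate 2 only, with 0.294, the 3.20th percentile of open promoters. In replicate 1 it had no peak, although 1.40% of its promoter bases passed the threshold, against 5.99% in replicate 2. The neighbouring microRNA gene Mir10a also had a peak of 0.294 in replicate 2 and none in replicate 1.

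The 10 genes open in replicate 1 only were Hoxa3, Hoxa6, Hoxa9, Hoxa11, Hoxd1, Hoxd3, Hoxd9, Hoxd10, Hoxd11 and Hoxd13. All 10 are in HoxA or HoxD. Their signals ran from 0.274 at Hoxd3 to 0.821 at Hoxd13, at most the 8.17th percentile of open promoters. In replicate 2 none of the 10 had a promoter peak, and 0% of their promoter bases passed the threshold. In replicate 1 the passing share was 100% at Hoxa6 and Hoxa11, 58.9% at Hoxd1, 50% at Hoxa3, 48.5% at Hoxd9, 39.3% at Hoxd10 and 31.4% at Hoxa9. It was 22.0% at Hoxd13, a gene of the digits and genital tract, 19.98% at Hoxd11 and 1.78% at Hoxd3. The weak peak signal and the wide passing share thus stood side by side at Hoxa6 and Hoxa11.

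**Figure D2:**
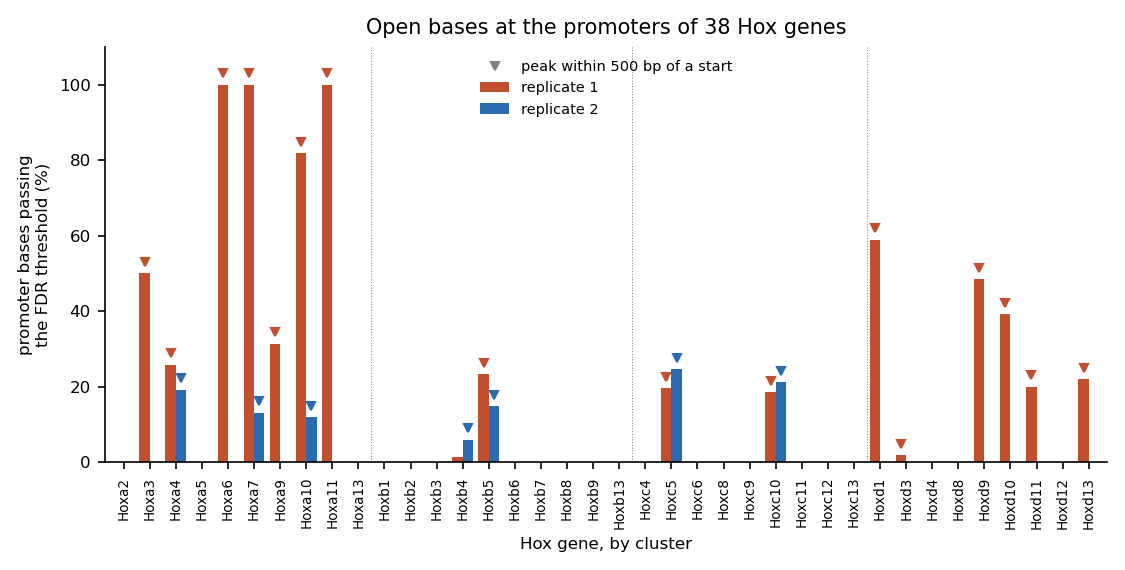
Share of promoter bases, in percent, that passed the false discovery rate threshold of 0.05 in each library for the 38 Hox genes, by cluster; triangles mark a peak within 500 bp of a start. Hoxa6, Hoxa7 and Hoxa11 reach 100% in replicate 1, no HoxD promoter is above 0% in replicate 2, and 21 genes have no triangle.

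By cluster, HoxA had 7 of 10 genes open in replicate 1 and 3 in replicate 2, and the 3 were open in both. HoxB had 1 and 2 of 10, with 1 in both. HoxC had the same 2 of 9 in both. HoxD had 6 of 9 in replicate 1 and 0 in replicate 2. By position, groups 1 to 3, the anterior genes, had 3 of 7 open in replicate 1 and 0 in replicate 2. Groups 4 to 8, the central genes, had 5 of 15 in each library and 4 in both. Groups 9 to 13, the posterior genes, had 8 of 16 and 2, with 2 in both. The gap in counts between the libraries was thus in HoxA and HoxD, while HoxB and HoxC gave like counts. By position it was in the anterior and posterior groups, whose genes open in replicate 1 only were all in HoxA or HoxD. The equal central counts included Hoxa6, open in replicate 1 only, and Hoxb4, open in replicate 2 only. The central gene Hoxa7 had 100% of its promoter bases passing in replicate 1 and 13.1% in replicate 2. Hoxb1 and Hoxb2, which pattern the hindbrain segments, Hoxb3, Hoxa2 and Hoxa5 were among the genes open in neither library.

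Along the chromosome, the libraries differed most in HoxA. The HoxA interval held 58 peaks in replicate 1 and 6 in replicate 2, or 5.89 and 0.609 peaks per 10 kb. The autosomes held 0.458 and 0.662 per 10 kb, and the 100 kb on each side of HoxA held 0.25 and 0.35. Of 25004 autosomal windows as long as the HoxA interval, 6 (0.0240%) held as many peaks as it did in replicate 1, and 52.5% did in replicate 2. The share of bases that passed the threshold was 31.4% in replicate 1 and 1.80% in replicate 2, where the autosomes had 1.53% and 2.05%. Replicate 2 had more peaks in the genome, 167829 against 115699, so the higher count of replicate 1 in HoxA ran against the totals.

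The excess of replicate 1 lay in a dense stretch of peaks and passing bases, with gaps. From the first to the last HoxA peak found in replicate 1 only, chr6:52206241-52249720, the stretch was 43.5 kb long and included every start of Hoxa6, Hoxa7, Hoxa9, Hoxa10 and Hoxa11. In replicate 1, 69.5% of its bases passed the threshold, with 56 peaks and 94 footprints. In replicate 2, 2.10% passed, with 3 peaks and 6 footprints. The longest unbroken run of passing bases was 4088 bp in replicate 1, beside and over the 5′ end of Hoxa11, and 389 bp in replicate 2, at the upstream start of Hoxa7. The open promoter of Hoxa3 in replicate 1 was inside the same stretch, at the far upstream start at 52213115, and its start at 52183855, nearer the coding part, had no peak in either library. The stretch was bounded after its values were seen.

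In steps of 10 kb from the first base of HoxA, the passing share in replicate 1 was 38.1%, 87.7%, 41.6%, 67.5% and 70.1% over the fifth to the ninth step, and at most 2.59% in the others. In replicate 2 the same steps had 2.75%, 4.00%, 0%, 2.38% and 0%. Of 246266 autosomal steps of 10 kb, 7 had at least 87.7% in replicate 1, and 151 (0.0613%) had at least 50%, as did 3 of the 10 steps of HoxA. The head side of HoxA, from Hoxa2 to Hoxa5, held 1 shared site, at the Hoxa4 promoter, and 1 peak of replicate 2 only, in an intron between the 3′ ends of Hoxa4 and Hoxa5. The tail side beyond Hoxa11 held the Hoxa11/Hoxa13 site alone among shared sites.

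**Figure D3:**
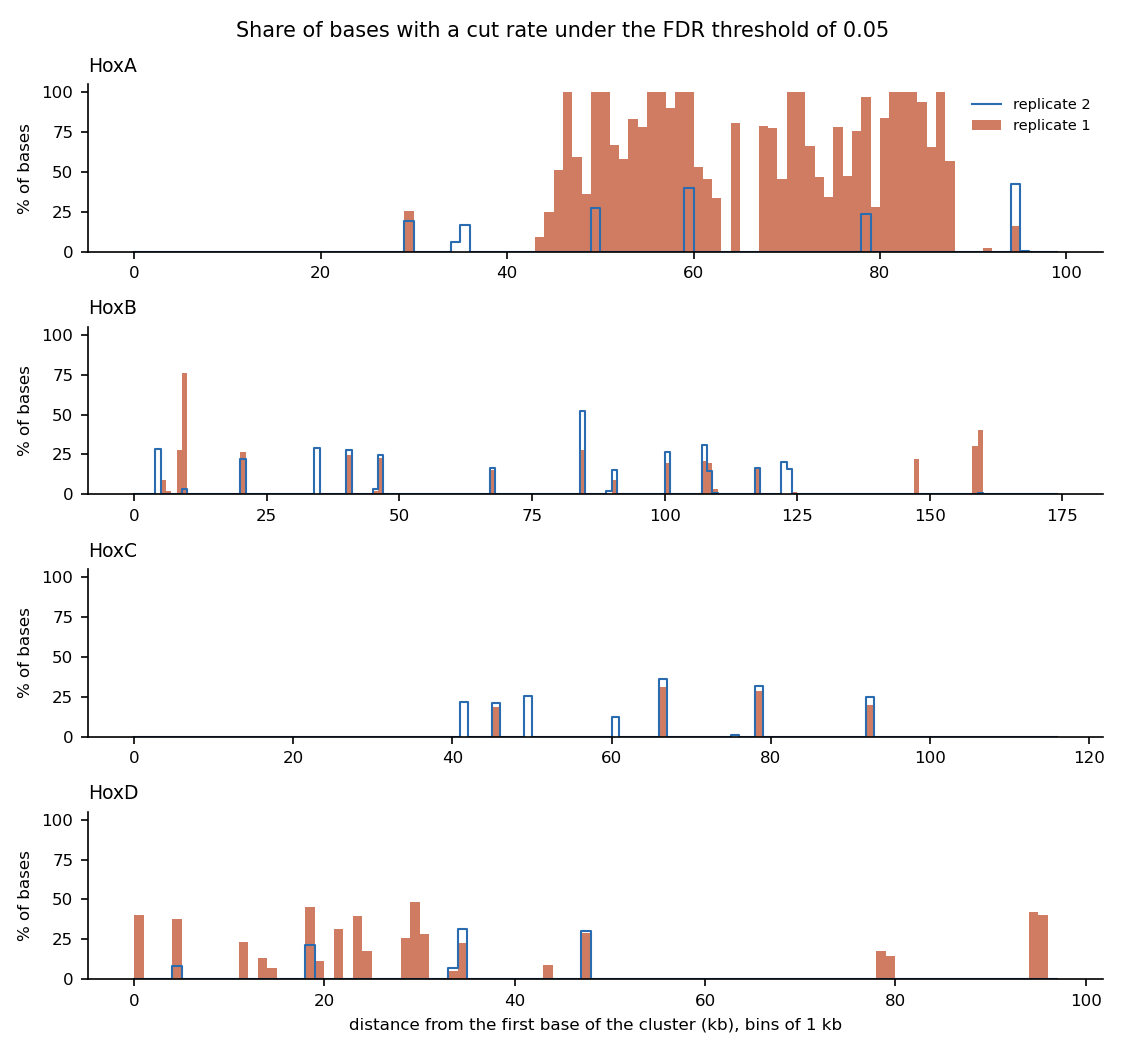
Percent of bases in bins of 1 kb that passed the false discovery rate threshold of 0.05, against the distance in kb from the first base of each Hox cluster, as bars for replicate 1 and a line for replicate 2. HoxA of replicate 1 has high bins over a stretch of about 43.5 kb with a few empty bins, while replicate 2 and the other clusters have single bins or short runs of neighbouring bins.

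HoxD differed between the libraries in the same direction, with fewer peaks. It held 23 peaks in replicate 1 and 4 in replicate 2, and all 4 were shared. As many peaks were found in 1.08% and 69.9% of autosomal windows of its length. The passing share was 5.66% and 1.02%, and the longest run was 607 bp in replicate 1, at Hoxd1, and 351 bp in replicate 2, at the Hoxd9/Hoxd8 site. The 19 peaks of replicate 1 only had a median signal of 0.448. Most lay around Hoxd11, Hoxd10 and Hoxd9, and the others were at Hoxd13, Hoxd3 and Hoxd1. None was intergenic: 9 were at promoters, 6 in exons and 4 in introns.

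HoxB and HoxC differed less between the libraries. HoxB held 17 and 14 peaks, and 2.40% and 2.01% of its bases passed. Of these peaks 7 and 4 were not shared. In the tenth bin of 1 kb of HoxB, 76.2% of bases passed in replicate 1 and 3.2% in replicate 2. HoxC held 4 and 7 peaks, and 0.850% and 1.51% passed. As many peaks as in HoxC were found in 53.0% and 53.3% of windows of its length, and as many as in HoxB in 11.1% and 36.1%. All 4 peaks of HoxC in replicate 1 were shared. In HoxB 10 sites were shared, 4 of them in the gap between Hoxb13 and Hoxb9.

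Over all 4 clusters, 23 of the 102 peaks of replicate 1 (22.5%) and 23 of the 31 of replicate 2 (74.2%) were shared. Over the genome the shares were 70.9% and 49.4%. The cluster share was thus below the genome's in replicate 1 and above it in replicate 2. In replicate 1 the shared cluster peaks had a median signal of 1.40 (range 0.509 to 5.92) and the 79 others 0.395 (range 0.122 to 0.821). In replicate 2 the medians were 0.658 and 0.415, and the ranges overlapped, 0.363 to 2.20 and 0.294 to 0.756. Over the genome the medians were 1.15 and 0.448 in replicate 1 and 0.785 and 0.346 in replicate 2. The 53 single-library peaks of HoxA in replicate 1 had a median of 0.319 and were wide, with a median of 280 bp, against 138 bp for all single-library peaks of that library. All 23 shared sites held a footprint in replicate 1 and 21 did in replicate 2.

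**Figure D4:**
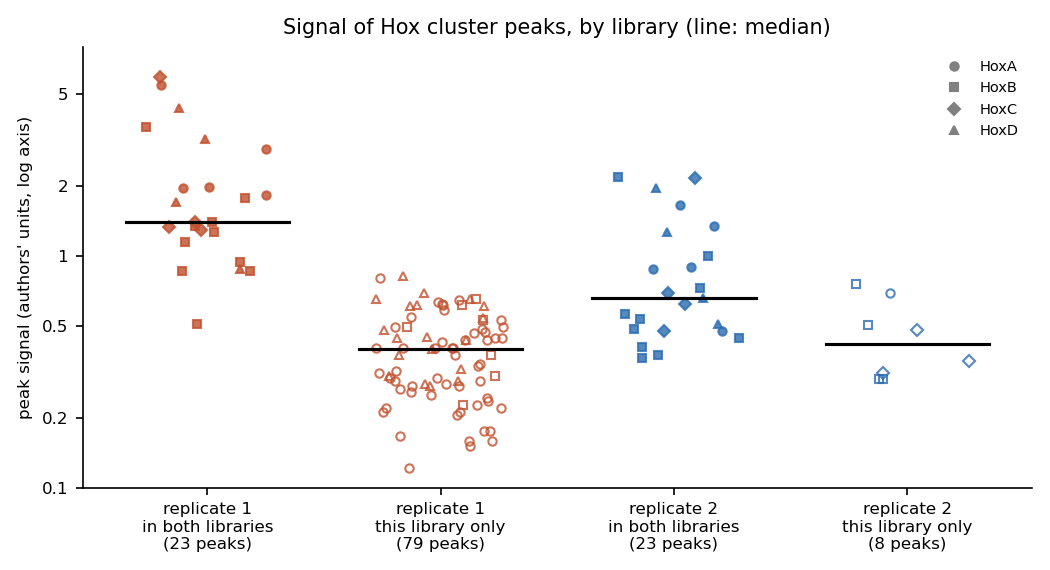
Signal of each Hox cluster peak, in the authors' units on a log axis, by library and by whether the other library had an overlapping peak; symbols give the cluster and lines the median. In replicate 1 the 79 single-library peaks are at most 0.821 with a median of 0.395, and the 23 shared peaks have a median of 1.40.

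Inside the clusters, 38 noncoding gene models were measured at their own starts. A peak in both libraries was found at 3 of them, against 11.6% of the 33475 such models in the genome: Hoxd3os1 with 3.21 and 1.28, 9530018H14Rik with 1.96 and 1.66, and Gm53 with 1.27 and 0.404. A further 13 had one in replicate 1 only and 1 in replicate 2 only, against 2.69% and 3.28%. Several of the 13 lie close together upstream of the 5′ end of Hoxa11 and share peaks. Hoxa11os, antisense to Hoxa11, had 0.631 in replicate 1, and Haglr, which starts beside Hoxd1 and shares its peak, had 0.653. The microRNA gene Mir196b, beside Hoxa9, had 0.426 in replicate 1. Mir196a-1, Mir196a-2, Mir10b and Mir615 had no peak in either library, and neither did Hotair, the long noncoding RNA gene of HoxC. Genes at the edges of the clusters differed among themselves. Evx2, a homeobox gene next to Hoxd13, had 0.745 in replicate 1 and none in replicate 2, and Evx1, its counterpart beside HoxA, had none in either. Lnpk and Mtx2, coding genes farther out on either side of HoxD, were open in both, with 9.62 and 2.91 and with 3.43 and 1.13.

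Most of the listed genes that act with Hox proteins or set their state were open in both libraries. All 8 cofactor genes listed of the PBX, MEIS and PKNOX families, which bind DNA together with HOX proteins, had a promoter peak in both libraries. Pbx3 had 8.94 and 2.77, and Meis2 had 2.79 and 1.16. All 20 Polycomb genes, which keep Hox genes silent, and all 11 Trithorax genes, which keep them active, were also open in both. Ezh2, the Polycomb methyltransferase, had 15.9 and 6.29, and Kmt2a, the Trithorax methyltransferase, had 21.2 and 5.90. Of 15 genes of retinoic acid signalling, which induces Hox genes in the embryo, 9 were open in both libraries. These included the 6 receptor genes, the synthesis enzyme genes Aldh1a1 with 0.418 and 0.704 and Aldh1a2 with 1.11 and 0.3, and the degrading enzyme gene Cyp26b1 with 0.897 and 0.283. The synthesis enzyme gene Aldh1a3 and the degrading enzyme genes Cyp26a1 and Cyp26c1 were open in neither. These lists were chosen with earlier results of the data known, and the background for all of them is the 61.9% of all genes that were open in both. The retinoic acid share, 60%, was near it. Among CpG-rich genes 93.5% were open in both. CpG-rich genes made up 17 of the 20 Polycomb, 7 of the 11 Trithorax and 5 of the 8 cofactor genes.

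Other homeobox genes differed by group. Of 27 homeobox genes of the forebrain, 24 were open in replicate 1 and 21 in replicate 2, and the 21 were open in both, such as Emx2, needed for the hippocampus to form, with 6.98 and 3.35, and Lhx2 with 9.19 and 3.28. Lhx5, Dlx1 and Pou3f1 were open in replicate 1 only, with 0.897, 1.41 and 0.828. Of the 8 ParaHox genes and Hox neighbours, the closest relatives of the Hox genes, 1 was open in both, Gsx1 with 2.88 and 0.825. Cdx2 and Evx2 were open in replicate 1 only, with 0.464 and 0.745. The 12 genes listed for hippocampal neurons were all open in both, such as Prox1, a marker of dentate granule cells, with 4.37 and 1.55, and Neurod6 with 2.37 and 2.80. Of all genes 61.9% were open in both, and of CpG-rich genes 93.5%. CpG-rich genes made up 8 of these 12, 21 of the 27 forebrain genes and 6 of the 8 ParaHox genes and neighbours. Because most CpG-rich genes are open, the count of 12 cannot by itself check the labelled tissue.

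Markers of other regions and cells, among them tissue in which Hox genes are active, were counted in the same way. Of all genes, 66.0% were open in replicate 1 and 63.5% in replicate 2. Among CpG-rich genes the shares were 96.9% and 93.7%. The list for the hindbrain and spinal cord had 14 genes, 11 of them CpG-rich. Of the 14, 11 were open in replicate 1 and 8 in replicate 2. The 3 open in replicate 1 only were Lbx1 with 0.646, Pax2 with 0.851 and Mnx1 with 0.540. At Lbx1 66.2% of promoter bases passed the threshold in replicate 1 and 0% in replicate 2. The passing share was higher in replicate 1 at 10 of the 14 genes. It was also higher there at 20 of the 27 forebrain genes and at 9 of the 12 listed for hippocampal neurons. Over all 21802 genes it was higher there at 8096, and over the 10010 CpG-rich genes at 5111. Phox2a, Lmx1b and Chat, which defines cholinergic neurons, were open in neither. Of 12 genes of vessels and meninges, 7 and 6 were open, with Flt1 and Foxd1 in replicate 1 only, at 1.09 and 0.775, and Cdh5 in replicate 2 only, at 0.312. The choroid plexus list had 2 of 8 open in each library, and Ttr, its defining marker, was open in neither. Prlr was open in both, Kl in replicate 1 only, at 0.653, and Kcnj13 in replicate 2 only, at 0.248. The blood list had 1 of 6 in each, the same gene. Open in replicate 1 only were 3 of the 14 hindbrain genes and 3 of the 27 forebrain genes, against 4.08% of all genes. Open in replicate 2 only were 0 and 0, against 1.59%. The part of these cells in the HoxA and HoxD results was not tested. In bulk tissue, fewer open cells and weaker opening in each cell cannot be told apart.

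**Figure D5:**
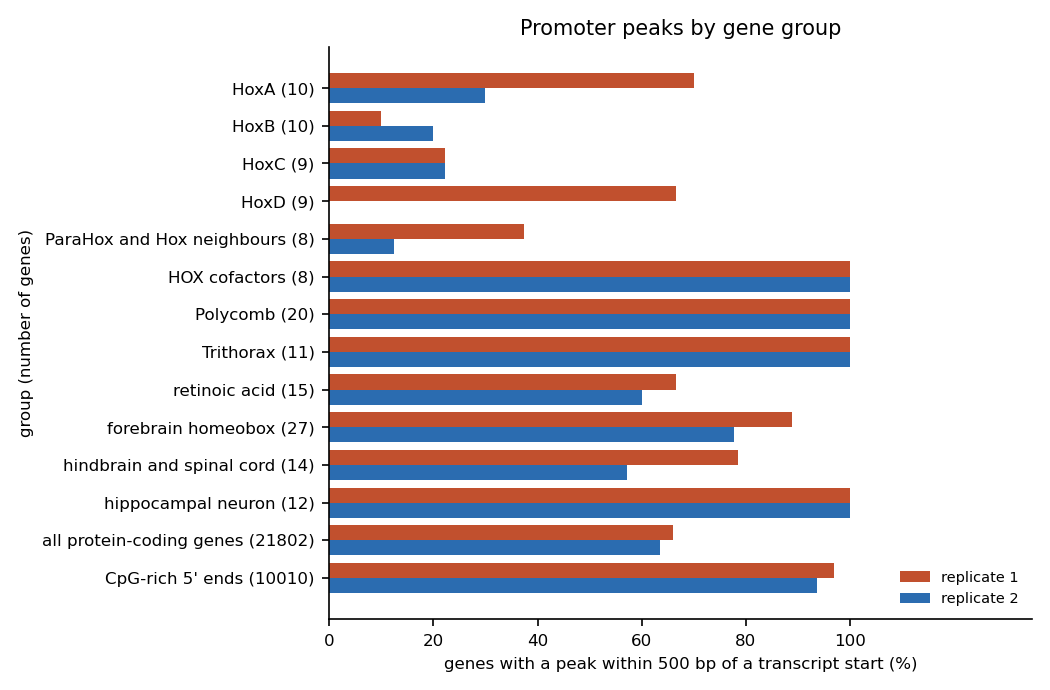
Percent of genes with a promoter peak, no more than 500 bp from a transcript start, by gene group with the number of genes in parentheses, for replicates 1 and 2. The Hox clusters stand between 0% and 70% and the cofactor, Polycomb and Trithorax lists at 100%, beside 66.0% and 63.5% of all protein-coding genes. Genes with CpG-rich 5′ ends stand at 96.9% and 93.7%.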

How the data were processed

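DNase-seq peaks, false discovery rate runs and footprints were used for 2 hippocampus libraries. Per the file headers and listings, the authors made each file from that library's own alignment to mm10. The sources used here give no aligner, caller or version. The deposited peak lists give a signal per peak, and the longer list of each library was used. The deposited q-value files list runs of bases with an FDR under 0.05. The deposited footprints carry a score of 0.01 in every row and were only counted.

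Gene models were GENCODE M21 and sequence was GRCm38.p6. Promoters were windows of 500 bp on each side of starts of protein-coding transcripts. Overlap, coverage, CpG ratios and motif matches were computed in Python 3.11.15 with numpy 2.4.6 and pandas 2.3.3, and tested on simulated intervals. Alternatives were other windows, the shorter peak lists, principal starts, equal peak numbers, a wider overlap, wider flanks, an FDR of 0.01, footprints inside peaks, and each library alone. All 38 members are accounted for, and named sites were the strongest shared peaks and those with a CTCF core. The members and lists were chosen with earlier results of these data known, and some genes are not reported here. Hybrid reads are placed on the C57BL/6J reference, and the effect of this was not tested.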

Additional observations from a re-analysis of the deposited data

How the results depend on the processing

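With 2 libraries of 1 group, every value describes these libraries, and the depth in reads behind the signal is unknown. With the shorter peak lists, promoter peaks were found for 2 Hox genes in both libraries and for 4 in replicate 2, the median signal of genes with a peak was 0.753 in replicate 2, and 13 cluster peaks were shared, counted in either library. With starts of principal transcripts, the median signal in replicate 2 was 0.473. Each library alone gave 7 to 16 Hox genes with a promoter peak. With those starts, the shorter list or 1 library, counts by cluster or position also moved, and HoxD had 0 genes open in both under each alternative that kept both libraries. Flanks of 500 kb held 0.768 and 0.885 peaks per 10 kb, against 0.550 and 0.475 within 100 kb. Windows of 250 and 1000 bp, equal peak numbers, an overlap of 50%, an FDR of 0.01 and footprints inside peaks moved no count by over 1.5 times. The cause was not tested. Sharing cannot be counted with 1 library. No paired analysis was possible because there was 1 group.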
